A study of Mus musculus with 2 samples.

Results

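The gene described here is Star (ENSMUSG00000031574.8), which codes for the steroidogenic acute regulatory protein. Its rows were all the transcript models assigned to the gene name Star in the deposited long-read tables, whatever their class: 66 models in replicate 1 and 68 in replicate 2. These are the models of 1 gene among 16457 annotated genes with reads, and of 88716 and 85696 models in all. The tissue was the adrenal gland of male mice of the strain B6CASTF1/J, a first-generation hybrid of a B6 and a CAST parent, aged 2 months, with no treatment named. The 2 libraries form 1 group, so no contrast between conditions exists, and every test below compares these libraries only. The biosample labels number the animals 3 and 4 while the library descriptions give 3 for both, so the spread between libraries may be technical.

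The Star protein moves cholesterol to the inner mitochondrial membrane, where the first enzyme of steroid synthesis acts on it, and this transfer is the step that limits steroid output. In the adrenal cortex its transcription is driven by the pituitary hormone ACTH through cyclic AMP. Star mRNA is known to be made with shorter and longer 3′ untranslated regions (3′ UTRs) by alternative polyadenylation, and AU-rich elements in the longer form are bound by proteins that speed its decay. A long read is meant to span one RNA from end to end, so it shows splice sites, intron content and the 3′ end of the same molecule.

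Star lies on the plus strand of chromosome 8 (mm10, chr8:25806555-25815982). Its main annotated transcript, Star-201, spans chr8:25808474-25815982 and has 7 exons that sum to 4046 nt. Exons 1 to 7 measure 159, 111, 128, 159, 185, 94 and 3210 nt, and introns 1 to 6 measure 823, 240, 1010, 109, 392 and 889 nt. The coding sequence is 855 nt with its stop codon and begins in exon 1, after a 5′ UTR of 95 nt. It ends in exon 7, so the 3′ UTR (chr8:25812887-25815982) is a single uninterrupted stretch of 3096 nt inside the last exon. The other annotated transcript, Star-202, starts at an upstream first exon of 39 nt at position 25806555. It had 0 reads in both libraries, which allows a share of up to 0.0303% and 0.0311% of Star reads.

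The letters that bear on the 3′ ends and on the new splice sites come from the GENCODE M21 transcript sequence of Star-201. This is a reference sequence, and the letters of the parental alleles in these hybrid mice were not read. The first set shows the stretches of 3′ UTR around the poly(A) signal hexamers (AATAAA or ATTAAA, in capitals) that lie in the last 40 nt before an end named below. Each line is named by that end, in nt after the stop codon, and its position follows the sequences.
End at 182: gcttagAATAAAagttctctagtgtctccc
End at 528: catgacAATAAAgaacatacatgcacactt
End at 1626: taaaaaAATAAAaatgacaaaaatataagt
Ends at 2424 and 2429: tattttAATAAAagcagttgtcactggcat
Annotated end at 3096: aagtatATTAAAttgtgttaatagtcattc
These stretches lie at chr8:25813039-25813068, chr8:25813389-25813418, chr8:25814474-25814503, chr8:25815272-25815301 and chr8:25815953-25815982. The end at 1837 had no such hexamer and was followed by a run of A (in capitals), shown because most single-exon reads of replicate 2 were placed in a model with this end.
End at 1837: ttttcattctaagcatgAAAAAAAAAAAAA
This stretch lies at chr8:25814709-25814738 and its 15th base is the model's last base.

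The second set shows the 3 most read places where a new acceptor inside an annotated exon shortened that exon. The capitals are the bases of the exon that the new acceptor leaves out, written in spliced Star-201 with the end of the exon before them.
Exon 4, acceptor +3: gaaagccagcagGAGaacggggacgaa
Exon 5, acceptor +9: aaggagatcaagGTCCTGCAGaggattgga
Exon 6, acceptor +2: tggtgtcatcagAGctgaacacggcc
In each case the bases left out end in AG, the letters found at nearly all acceptors. The shortened exons begin at positions 25810948, 25811222 and 25811792.

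Star had 9898 of 824225 gene-assigned reads in replicate 1 and 9637 of 656826 in replicate 2. This equalled 12009 and 14672 CPM (counts scaled to the library's gene-assigned reads), a mean of 13340 ± 1883 (SD, n = 2). By mean CPM, which is not divided by length because a long read is meant to stand for 1 molecule, Star ranked 3 among annotated genes, with rank 2 in replicate 1 and rank 3 in replicate 2. Above it stood Cyp11a1, the enzyme that cleaves the side chain of cholesterol, at 26354 and 19885 CPM, and Cyp21a1, the steroid 21-hydroxylase, at 11141 and 15927 CPM. Star and Cyp21a1 changed places between the libraries, so their order is within the spread. The next genes below were Cyp11b1 at 7550 and 9656 CPM, Hsd3b1 at 7650 and 7597 CPM, Car3 at 8655 and 5507 CPM and Abcb1b at 4443 and 5683 CPM, each lower than Star in both libraries. In whole tissue, fewer cells of a type and less RNA per cell cannot be told apart.

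After scaling by the trimmed mean of M-values (TMM), Star was higher in replicate 2 than in replicate 1 by 0.19 on the log2 scale, with an adjusted p of 5.28e-18 by the two-sided exact binomial test. It was not called, because the call also required a 2-fold difference. Both conditions together were met by 3.41% of the 8063 genes tested. The p alone passed in 11.1% of genes. The log2 ratio was 0.29 with scaling by the library total, and 0.00 (adjusted p = 1.0) once a trend of the ratio with transcript length was removed. Adipocyte markers differed between the same libraries: 5 of 8 tested were called, all lower in replicate 2, and the list's summed level was 1.83% of reads in replicate 1 and 1.02% in replicate 2. Red blood cell markers were likewise lower in replicate 2, with 4 of 5 called and sums of 0.195% and 0.0819%. With the length trend removed, 4 adipocyte markers and 1 red blood cell marker were called, against 1.64% of all genes. Their part in the small Star difference was not tested. For the labelled tissue, all 7 cortex genes and all 5 chromaffin genes had reads, while the 5 kidney genes summed to 7 and 6 reads and the 5 liver genes to 0 and 2.

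Star-201 was the form of most reads. Its full chain of 6 introns was held by 8080 reads in replicate 1, or 81.6% of Star reads (Wilson 95% interval 80.9 to 82.4%), and by 8043 reads in replicate 2, or 83.5% (82.7 to 84.2%). The difference of 1.83 percentage points did not pass Fisher's exact test after Benjamini-Hochberg adjustment (adjusted p = 0.103). The share of a gene's most read transcript was called different in 0.394% of 5334 genes; a call needed a difference of 10 points or more and an adjusted p below 0.05. For the Known class, which for Star was Star-201 alone, 0.319% of genes were called. Of spliced Star reads alone, Star-201 made up 89.6% and 90.7%.

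The remaining reads fell into 65 and 67 new models, of which 34 and 27 rested on 1 read each. Of their intron chains, 36 were found in both libraries, with 911 and 787 reads, and 13 had at least 5 reads in each. A chain here is the ordered set of introns in a model. No chain occurred in more than 1 model of a library, so a model has 1 start and 1 end for all of its reads. The map of models seen in both libraries shows that most of these new forms were shortened versions of Star-201, and that the starts and ends drawn for the same chain often differed between libraries.

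**Figure D1:**
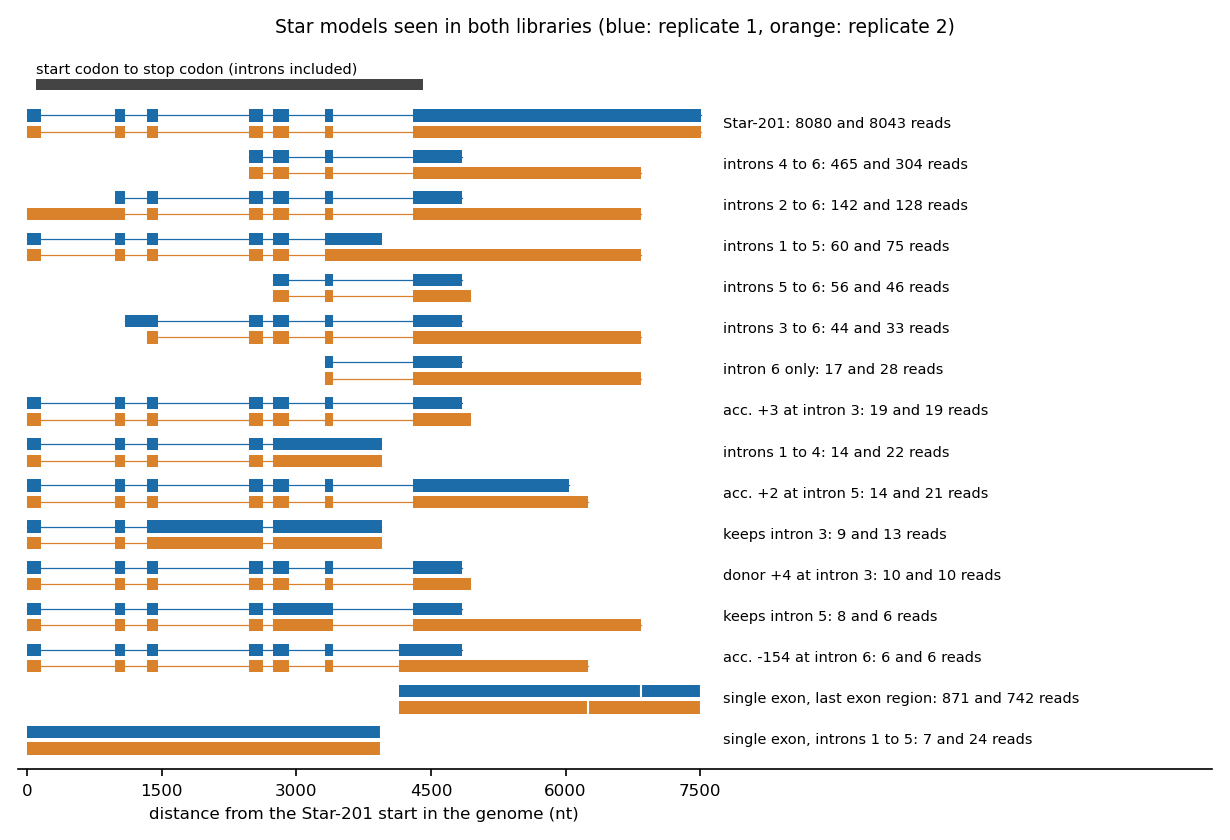
Map of Star-201, of the 13 other intron chains with at least 5 reads in each library and of the single-exon models, drawn by distance in nt from the Star-201 start, with boxes for exons, lines for introns and the reads of replicate 1 (blue) and replicate 2 (orange) at the right. White marks divide the single-exon models of the last exon region. Star-201 holds 8080 and 8043 reads, and no other spliced chain holds more than 465.

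The deposited classes divided the other reads as follows. Incomplete splice matches (ISM), models with only part of an annotated chain, took 8.38% of Star reads in replicate 1 and 14.4% in replicate 2. Genomic models, single-exon here, took 8.87% and 0.757%. Known splice sites in a new combination (NIC) took 0.364% and 0.270%, and models with a new splice site (NNC) took 0.758% and 1.10%. These labels did not always follow the sites. In replicate 1, models with the +2 acceptor (14 reads) and the +9 acceptor (3 reads), counted below as new sites, were labelled NIC. In replicate 2 the same chains (21 and 4 reads) were NNC. The NIC and NNC differences, -0.09 and 0.34 points, did not pass (adjusted p = 1.0 for both, Fisher's exact test), where 0.394% and 0.169% of genes were called. As replicate 2 minus replicate 1, the ISM share differed by 6.04 points (adjusted p = 1.23e-37, Fisher's exact test) and the Genomic share by -8.11 points (adjusted p = 1.14e-175). Neither reached the 10 points needed for a call. Both this and an adjusted p below 0.05 were met by 0.994% of genes for ISM and 0.881% for Genomic. The largest single-exon model, with 869 reads in replicate 1 and 693 in replicate 2, was labelled Genomic in the first and ISM in the second. Counted by structure, whatever the class, single-exon reads were 8.87% (8.33 to 9.45%) and 7.95% (7.43 to 8.51%), a difference of -0.92 points with an adjusted p of 0.866 by Fisher's exact test. That share was called different in 0.212% of 5187 multi-exon genes. The same chain also carried another class in the other library for 4 of the 36 shared new Star chains (11.1%), against 954 of 15915 such chains of all annotated genes (5.99%).

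**Figure D2:**
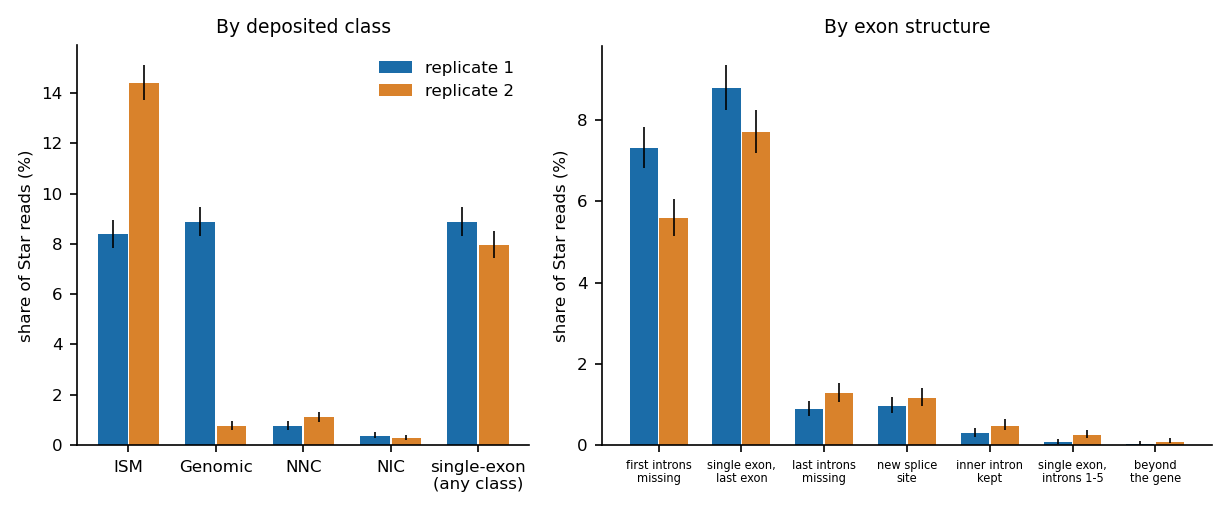
Share of Star reads in % in replicate 1 (blue) and replicate 2 (orange) by deposited class (left) and by exon structure (right, each read in 1 group), without Star-201; lines are Wilson 95% intervals for counting error. The Genomic bars stand at 8.87% and 0.757%, while the single-exon bars over all classes stand at 8.87% and 7.95%.

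Exons 2 to 6 were almost never skipped. Each had at most 1 skipping read in a library, against 8291 to 9009 reads that held it in replicate 1, and inclusion ran from 99.988% to 100% over these exons in both libraries. The upper Wilson limit on skipping was 0.0683% or lower. One read of replicate 1 joined exon 5 to exon 7, and this was the only skip that used annotated sites alone.

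Among reads that spanned an intron with spliced sequence on both sides, annotated splicing was found in 99.2% to 99.9% for each of the 6 introns. Intron 3, the longest, was most often kept inside an inner exon: by 16 reads in replicate 1 (0.189%, interval 0.116 to 0.307%) and 29 in replicate 2 (0.343%, 0.239 to 0.492%). Intron 2 was kept by 8 and 15 reads and intron 5 by 12 and 6. Intron 4, the shortest, was kept by 0 and 1 reads. Introns 1 and 6 could not be scored this way, since a read that keeps either holds it in its first or last exon. Their annotated splicing above was thus set against other junctions alone. Spliced models whose first or last exon covered intron 1 had 6 and 137 reads, and those that covered intron 6 had 0 and 78. The intervals of introns 2, 3 and 5 overlapped between libraries. The order of those 3 introns was not the same in each. In both libraries, most reads that kept intron 3 were in models drawn to end at position 25812423, inside intron 6. The most read of these models had 9 and 13 reads, and its last junction was that of intron 4. Most intron 2 reads were in models with this end in replicate 2, but not in replicate 1. These counts are therefore largely not of retention in transcripts with all other introns spliced. Keeping intron 2 adds 240 nt, a multiple of 3, and keeping intron 3 or 5 adds 1010 or 392 nt, neither a multiple of 3.

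**Figure D3:**
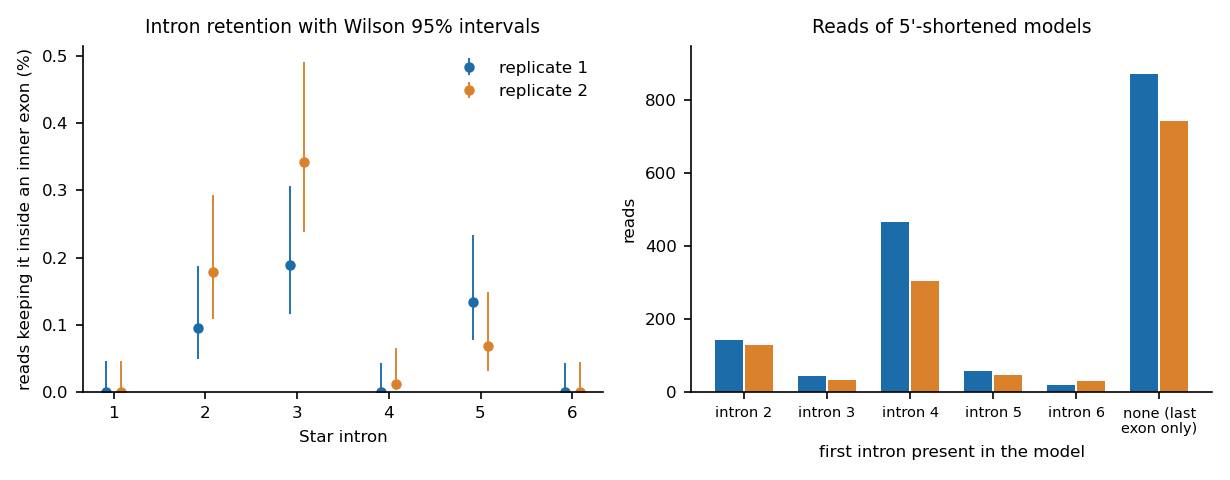
Left: share in % of spanning Star reads that kept each intron inside an inner exon, with Wilson 95% intervals. When kept, introns 1 and 6 lie in a first or last exon, so their points at 0 are set by the definition. Right: reads of models with an otherwise annotated chain, by the first intron they hold. Intron 3 has the highest points at 0.189% and 0.343%, and the models that begin at intron 4 have more reads (465 and 304) than those that begin at any of introns 2, 3, 5 and 6.

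New splice junctions were many in kind and few in reads. There were 42, of which 16 were seen in both libraries, and models with a new site held 99 reads in replicate 1 (1.00%) and 120 in replicate 2 (1.25%). The most used were the acceptor 3 nt into exon 4, with 23 and 21 reads, and the acceptor 2 nt into exon 6, with 18 and 26 reads. Their sums were equal. A donor 4 nt into intron 3 had 11 and 10 reads, and the acceptor 9 nt into exon 5 had 4 and 5. These alternatives sat within a few bases of the annotated site, and all 4 had reads in both libraries.

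Their effect on the reading frame was read from the Star-201 sequence with the rest of the chain as annotated. Leaving out 3 nt at exon 4 gives an open frame of 852 nt and leaving out 9 nt at exon 5 gives 846 nt, both still in frame with the annotated stop. Leaving out 2 nt at exon 6 shifts the frame and gives 651 nt, where Star-201 has 855 nt. The rarer donor 4 nt before the end of exon 3, with 2 reads in each library, gives 321 nt. No genome sequence was used here, so sites inside introns are described by length alone: the donor in intron 3 adds 4 nt, not a multiple of 3.

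Larger changes were found in introns 1, 3 and 6. In intron 1, donors 321, 199 and 139 nt downstream of the annotated one had 4 and 11, 3 and 8, and 4 and 1 reads, and each lengthened exon 1, which is 159 nt as annotated. A donor 897 nt into intron 3 had 3 and 2 reads. In intron 6, an acceptor 154 nt before exon 7, at position 25812619, had 7 and 9 reads. In 3 and 8 reads the last exon of the model lay beyond Star, after a junction from the exon 6 donor to position 25822708 (2 and 6 reads), 25836618 (1 and 1) or 25836744 (0 and 1). These positions are inside Ash2l, a histone methyltransferase complex gene on the opposite strand, whose nearer boundary lies 14 nt downstream of Star.

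Models that lacked the first introns of an otherwise annotated chain held 724 reads in replicate 1 (7.31%, interval 6.82 to 7.84%). In replicate 2 they held 539 (5.59%, 5.15 to 6.07%). The intervals did not overlap, and this difference was given no test. Reads did not fall off evenly along the transcript. Models that began at intron 2 had 142 and 128 reads, those at intron 3 had 44 and 33, those at intron 4 had 465 and 304, those at intron 5 had 56 and 46, and those at intron 6 had 17 and 28. The step at intron 4 was thus the highest in both libraries, at 4.70% and 3.15% of Star reads. The deposited start of that model was 3 nt into exon 4 in replicate 1, the same base as the +3 acceptor, and the first base of exon 4 in replicate 2.

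The start drawn for a chain was not always in the first exon it needs. In replicate 2 the model of introns 2 to 6 (128 reads) was drawn from the Star-201 start through all of intron 1, while in replicate 1 (142 reads) it began at the first base of exon 2. In replicate 1 the model of introns 3 to 6 (44 reads) was drawn through intron 2, while in replicate 2 (33 reads) it began at exon 3. Since 1 coordinate stands for all reads of a model, intron sequence at a model's end was not counted as retention above.

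The same held at the 3′ side. Multi-exon reads whose chain stopped before intron 6 numbered 102 in replicate 1 (1.03%, interval 0.850 to 1.25%) and 159 in replicate 2 (1.65%, 1.41 to 1.92%), and the intervals did not overlap. In replicate 1 all 102 were in models that ended at position 25812423 inside intron 6, and in replicate 2 81 were in models with the same end. Most of the other reads of replicate 2 belonged to the chain of introns 1 to 5. Its 60 reads in replicate 1 were drawn to end inside intron 6, and its 75 reads in replicate 2 were drawn through intron 6 to position 25815310. A single-exon model that ran from the Star-201 start over introns 1 to 5 to position 25812423, inside intron 6, had 7 reads in replicate 1 (0.0707%) and 24 in replicate 2 (0.249%). As drawn, this model covered the most intron sequence of the Star models, but 1 span stands for all of its reads.

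Most single-exon reads of Star were in models of the last exon region, not in the model over introns 1 to 5. A read inside exon 7 has no junction to show, so these reads do not tell spliced from unspliced RNA. Single-exon models of the last exon region held 871 and 742 reads, 8.80% and 7.70% of the gene. The first and larger model of each library began at position 25812619, the base of the intron 6 acceptor named above. It was thus drawn with 154 nt of intron 6 before exon 7. As 1 start stands for all of its reads, those reads need not hold that intron sequence. In replicate 1 the first model ended at 2429 nt after the stop codon (869 reads) and the second ran from that base to the annotated end (2 reads). In replicate 2 the first ended at 1837 nt (693 reads) and the second ran on from there (49 reads). The models thus divided 1 region at a different base in each library. The base that divides them is not a measure of where reads ended.

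Read by whether a model held a whole annotated intron in an exon, the share of Star was 1.05% (104 reads) in replicate 1 and 3.30% (318 reads) in replicate 2. The 128 and 75 reads of the chains drawn through intron 1 and intron 6 in replicate 2 are in that sum, as are the 44 reads drawn through intron 2 in replicate 1. This measure therefore rests largely on the single start or end that each model was given.

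Among 110 multi-exon genes that had 500 or more reads in both libraries, Star's single-exon share of 8.41% (mean of the 2 libraries) compared with a median of 1.29%, and 8 genes were higher. Its ISM share of 11.4% compared with a median of 4.03%, with 16 genes higher, and its Known share of 82.5% with a median of 90.7%, with 91 genes higher. The neighbours in level that belong to the steroid pathway varied. Cyp11a1 had a single-exon share of 39.3% (50.3% and 28.3%), an ISM share of 3.91% and a Known share of 53.9%. Hsd3b1, the enzyme that converts pregnenolone to progesterone, had 5.86% single-exon, 92.5% ISM and 0.187% Known reads. Cyp11b1 had 2.73%, 4.41% and 89.1% in the same order, and Cyp21a1 had 0.906%, 7.75% and 86.2%. Among the genes nearest to Star in their 5 class shares, by Euclidean distance in percentage points over the mean of both libraries, were Pnpla2 (3.48), Gpd1 (4.16), Nr4a1 (5.67), Cidec (5.97) and Atp5b (6.05). Since classes could move between libraries, these distances are descriptions only.

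**Figure D4:**
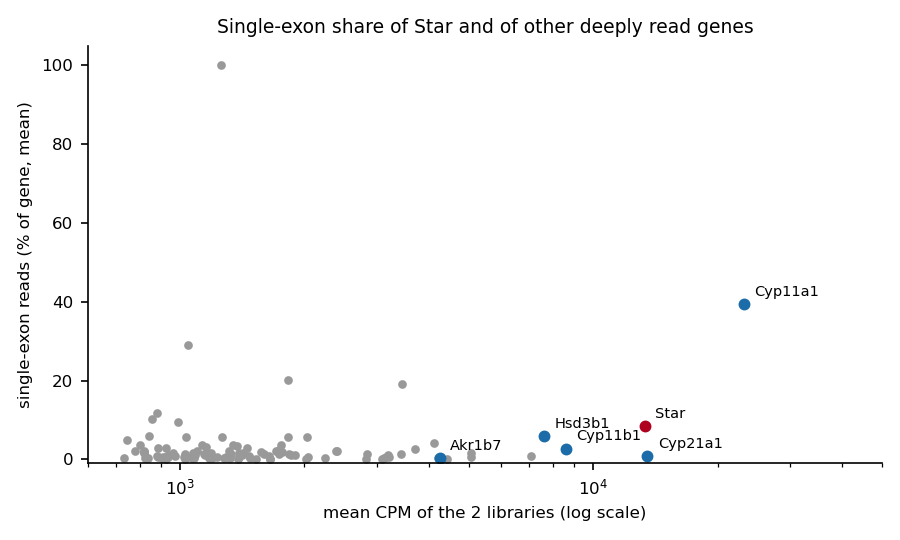
Single-exon share of reads in % (mean of the 2 libraries) against mean CPM on a log scale for 110 multi-exon genes that had 500 or more reads in both libraries; Star is red and other named steroid pathway genes are blue. Star lies at 8.41%, between Cyp11a1 at 39.3% and Hsd3b1 at 5.86%.

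The 3′ ends were taken only from new models, since Star-201 carries its annotated end whatever its reads, and only where the annotated intron 6 led into the last exon. These were 37 models in replicate 1 and 29 in replicate 2, with 817 and 644 reads. Every one ended short of the annotated end, so the 3′ UTR they drew was 239 to 2429 nt long in replicate 1 and 182 to 2424 nt in replicate 2, against 3096 nt in Star-201. The median over models was 429 nt and 528 nt. In replicate 1, 21 models ended at 429 nt after the stop codon, 8 at 2429, 3 each at 1260 and 1626, and 1 each at 239 and 2074. In replicate 2, 12 ended at 528 nt, 7 at 2424, 6 at 1837, 3 at 182 and 1 at 1260. Both libraries thus had their most used end within the first part of the 3′ UTR and their next most used 667 and 672 nt before the annotated end.

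By reads, 782 of 817 in replicate 1 belonged to models that end at 429 nt, whereas 504 of 644 in replicate 2 belonged to models that end at 2424 nt. The model of introns 4 to 6 was the largest part of both sums, with 465 reads drawn to end at 429 nt in replicate 1 and 304 drawn to end at 2424 nt in replicate 2. Without it, 317 of 352 reads ended at 429 nt in replicate 1 and 200 of 340 at 2424 nt in replicate 2. The chains of introns 2 to 6, introns 3 to 6 and intron 6 only were drawn to the same ends. Since a model has 1 end for all of its reads, these sums are not a count of short and long 3′ UTRs. Models of a single read do not pool several reads, but they too shared ends with other models, 9 of them at 429 nt in replicate 1. Their drawn ends therefore need not be where the reads stopped. There were 21 in replicate 1 and 10 in replicate 2. Of these 31, 18 ended at 528 nt or less after the stop codon, 8 at 2424 or 2429 nt, 5 in between, and 0 at the annotated end. In replicate 1 the counts were 10, 7 and 4, and in replicate 2 they were 8, 1 and 1.

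The ends were also few in number. The distinct ends of new models within the gene were at least 190 nt apart in replicate 1 and 145 nt apart in replicate 2, and some of them were shared by many models. Any merging of nearby ends was not given in the sources used here, so an end may stand for a range of positions. Over both libraries, the last exon had 9 ends when those within 50 nt were joined, and 2 of them, at 1260 nt and at 2424 to 2429 nt, occurred in both libraries. Joining ends within 100 nt paired 429 with 528 and 182 with 239, which left 7 ends, 4 of them in both.

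**Figure D5:**
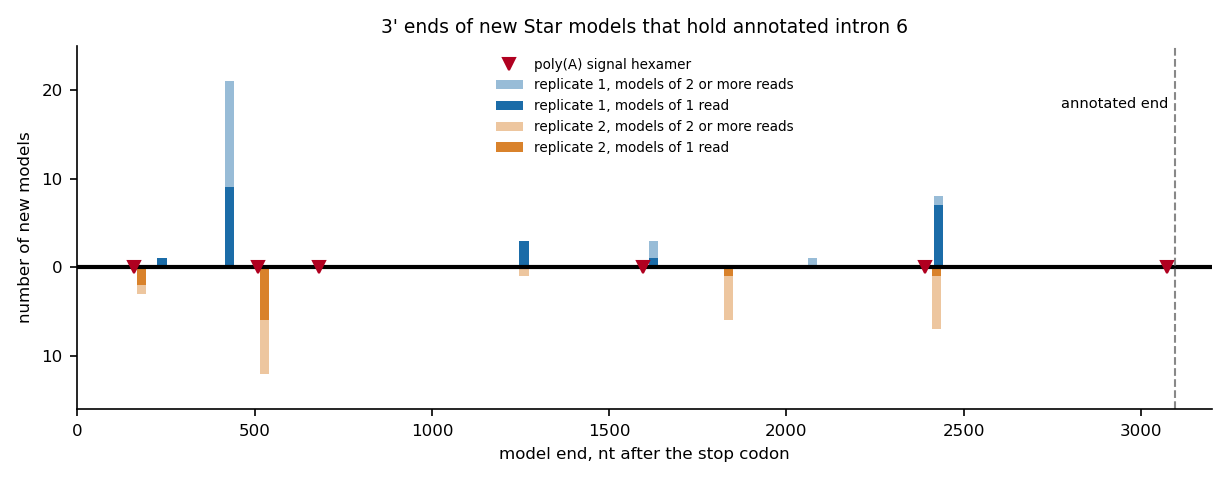
Number of new Star models with annotated intron 6 by their end in nt after the stop codon, replicate 1 above the line and replicate 2 below it; dark bars are models of 1 read, pale bars models of 2 or more, triangles are poly(A) signal hexamers and the dashed line is the annotated end at 3096 nt. The tallest bars stand at 429 nt (21 models) and 528 nt (12 models), and 8 and 7 models end at 2429 and 2424 nt.

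The 3′ UTR letters were searched on the sense strand for the hexamers AATAAA and ATTAAA, which do not overlap each other here. AATAAA occurred 4 times, beginning at 159, 509, 1594 and 2392 nt after the stop codon, and ATTAAA occurred 2 times, at 682 and 3073 nt. Of the 10 distinct ends in the last exon, 5 had a hexamer in their last 40 nt: 182, 528, 1626, 2424 and 2429. From the last base of the hexamer to the end lay 18, 14, 27, 27 and 32 nt, and for the annotated end 18 nt. The ends at 239, 429, 1260, 1837 and 2074 had none, so the most used end of replicate 1 lacked one while that of replicate 2 had one. For scale, 70.7% of 20937 annotated 3′ UTRs (the longest of each gene, at least 40 nt) held 1 of the hexamers in their last 40 nt, and 4.95% of all 40-nt windows in those 3′ UTRs did. In single-read models, 8 of 21 in replicate 1 and 9 of 10 in replicate 2 ended after a hexamer. Few ends made up these counts. In replicate 1 they were 2429 nt (7 models) and 1626 nt (1). In replicate 2 they were 528 nt (6 models), 182 nt (2) and 2424 nt (1). The models are therefore not separate measures of an end.

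Other letters of the 3′ UTR set the context of these ends. A run of 13 A began at 1840 nt, just after the end at 1837 nt, and was the only run of 10 or more. A run of 10 or more A was found over the same length in 27.5% of the 2960 annotated 3′ UTRs at least as long. The pentamer ATTTA, the core of AU-rich elements, occurred 5 times on the sense strand, at 632, 1221, 2064, 2097 and 2126 nt. At least as many occurred over the same length in 54.8% of those 3′ UTRs. All 5 copies lie beyond the ends at 429 and 528 nt, and all lie before the ends at 2424 and 2429 nt. These matches are descriptions of the sequence and were not tied to binding.

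Around the gene, transcripts were sparse. Lsm1, upstream by 2580 nt, had 53 and 26 reads, Ash2l had 47 and 37, Bag4 had 37 and 23, Gm17484 had 2 and 1, and Kcnu1 had none. On the strand opposite to Star, a single-exon model of a new locus ran from position 25812130 to 25813315 in replicate 1 (30 reads) and from 25812130 to 25813414 in replicate 2 (29 reads). It covers the end of intron 6, the stop codon and the first part of the 3′ UTR. Its right boundary was, in each library, the 3′ end shared by the largest number of new Star models with annotated intron 6. By reads, that end was not the largest in replicate 2, with 89 reads against 504 at position 25815310. The left boundary of the opposite-strand model was the base of a rare intron 6 donor with 1 read in each library. The strand assignment of single-exon reads was not given in the sources used here.

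Other genes of the pathway were taken from a list of 20 with Star among them. Of these genes, 1 was called, beside 3.41% of all genes. By adjusted p alone (exact binomial test), 6 were higher and 6 lower in replicate 2, where all genes gave 3.57% higher and 7.52% lower. In deeply read genes the p alone passed at small ratios, such as a log2 ratio of -0.11 for Hsd3b1 with 6305 and 4990 reads. The list's median log2 ratio was -0.06 against 0.01 for all genes tested. A list of 6 held Star, 4 other genes with the START lipid-binding domain and Stard3nl, which shares a different domain with Stard3. Of these, 5 had reads. Stard3, a cholesterol-binding relative on endosomes, had 52 and 39, Stard3nl 25 and 28, Stard5 14 and 22, Stard4 4 and 4, and Stard6 none. None of the 4 tested was called, and only Star passed by adjusted p alone.

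The genes that control Star RNA or protein formed a list of 20, of which 16 were tested. Nr4a1, an orphan nuclear receptor that ACTH induces and that acts on steroid gene promoters, was the 1 gene called, with 696 and 1218 reads, a log2 ratio of 1.04 and an adjusted p of 5.64e-51 by the exact binomial test, beside 3.41% of all genes. With the length trend removed its log2 ratio was 0.95, under 2-fold, and the call was lost. By adjusted p alone, 4 were higher and 1 lower, beside 3.57% and 7.52% of all genes, and the list's median log2 ratio was 0.26. Nr5a1, the nuclear receptor that drives steroid genes, had 275 and 341 reads. The RNA-binding proteins that act on AU-rich elements had few: 10 and 9 reads for Zfp36, 37 and 53 for Zfp36l1, and 39 and 49 for Zfp36l2. Akap1, which anchors protein kinase A and Star mRNA at the mitochondrial surface, had 145 and 139. Lonp1, the matrix protease that degrades Star protein, had 1311 and 1369.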

How the data were processed

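Long-read RNA sequencing was done on adrenal glands, 2 libraries in 1 group. The deposited values are raw counts per transcript model, with exon coordinates. Per the file headers and deposited notes, reads were aligned to mm10 and models were written by TALON against GENCODE M21. The aligner was not given in the sources used here. Each library had its own models, so spliced models were matched by intron chain. The exon number and length columns were read as deposited, per the file headers.

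Reads were summed per gene over all classes, without spike-ins. Log2 ratios are replicate 2 over replicate 1, with 1 CPM added, on TMM sizes (edgeR 4.0.16, R 4.3.3). Scaling by the total shifts the median gene by 0.10. The quasi-likelihood test could not be fitted with 1 group of 2 libraries. Two-sided exact binomial tests (at least 20 reads in sum) and Fisher's exact tests (at least 20 reads in each library) used SciPy 1.17.1 with Benjamini-Hochberg adjustment over all genes. Wilson 95% intervals and limits of 3 reads for a count of 0 cover counting error only, since no molecular identifiers were used.

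The gene, lists and markers were chosen with earlier results of these data known. Genes named were Star, its nearest genes in level and class shares, neighbours within 50 kb, and list members that were called; other list members were named after their values were seen. Some genes that this rule names are not reported here. DESeq2 1.42.0 size factors were an alternative. Counts of called list genes with the length trend removed were added after seeing the data. No protein, promoter or genome sequence of Star was used here.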

Additional observations from a re-analysis of the deposited data

How the results depend on the processing

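Star stayed uncalled under the 7 alternatives of scaling, filter, reads counted and length trend, with log2 ratios from 0.14 to 0.29 except with the length trend removed, where it was 0.00 (adjusted p = 1.0 by the exact binomial test). Without one replicate, its level was 12009 or 14672 CPM, the Star-201 share 81.6 or 83.5%, the ISM share 8.38 or 14.4%, the Genomic share 0.757 or 8.87% and the single-exon share 7.95 or 8.87%. Over multi-exon reads only, the ISM difference turned to -1.34 points (adjusted p = 0.216 by Fisher's exact test) and the Genomic difference was 0 points, since those alternatives leave out the single-exon models. The single-exon difference of -0.92 points became 2.25 points for models that hold a whole intron (given without adjustment over genes); the cause was not tested. New chains with at least 5 reads in each library numbered 13; there were 10 with splice sites matched within 5 nt, 22 with at least 2 reads in each, 90 with at least 1 read in either, and 13 or 19 without one replicate. Ends numbered 9, and 7 to 9 under other windows and filters, or 5 and 6 without one replicate. Ends in both libraries numbered 2, rising to 4 within 100 nt and falling to 1 with models of at least 2 reads. No paired analysis was possible because there is 1 group. Differences between libraries have no value without a replicate. Depth limits forms near 0.03% of Star reads.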
